A study of Mus musculus with 6 samples.

Results

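Axon guidance genes were followed in the retinas of newborn mice that lacked cyclin D1 and of wildtype newborns. The 52 genes considered encode ligands and receptors of the Eph, semaphorin, Slit and netrin systems and 4 axonal adhesion molecules. They were taken by name from a list, which was chosen with earlier results of these data known. Of the 52, 51 had a probe set with a single gene symbol, out of 18193 genes named on the array. Ephb2 was the member without one. Where a gene had several probe sets, the one with the highest mean over the 6 arrays stood for it. Of the 51, 40 were bright enough to be tested, among 10916 genes tested in all.

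Retinas from each genotype, wildtype or Cyclin D1 -/-, were dissected at birth and combined into 3 numbered pools, with 1 Affymetrix array per pool. The deleted gene, Ccnd1, encodes the D-type cyclin that partners Cdk4 and Cdk6 and drives retinal progenitors into division. The labels give no strain and no number of animals per pool, and do not say whether pools shared litters. The p-values therefore measure the spread between these pools. The submitters' stated question was whether genes bound by cyclin D1 change when it is absent. Their binding data were not used here, so what follows asks how the expression of guidance genes differed between the genotypes.

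Guidance molecules tell growing axons where to go, and in the newborn eye the axons concerned are mainly those of retinal ganglion cells, the only neurons that project from the retina to the brain. Ephrins and Eph receptors act between touching cells and help map retinal position onto visual targets. Slits repel axons that carry Robo receptors, netrins attract through Dcc and repel through Unc5 receptors, and semaphorins signal through plexins, some of them with a neuropilin as partner. Several of these molecules are also used by amacrine cells, progenitors and blood vessels. In whole retinas, fewer cells of a type and less RNA per cell cannot be told apart.

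The labels were checked on Ccnd1, whose level lay between 12.35 and 12.56 in the wildtype pools and between 8.81 and 8.92 in the knockout pools. Levels are log2 of the quantile normalised intensity plus 16, and differences are knockout minus wildtype on that scale, which understates changes of dim genes. Median deposited intensity ranged from 40.6 to 50.5 between arrays. Precision is limited by having 3 arrays a genotype. Pools 1 and 2 of a genotype were more alike than any other pair, with an SD of the log2 difference of 0.22 for wildtype and 0.21 for knockout against 0.28 to 0.52 elsewhere. Whether they share tissue or RNA is not known. The arrays were divided by rank of their bacterial BioB and BioC hybridisation controls. The brighter set was knockout pools 1 and 2 and wildtype pool 3, with mean log2 control intensities of 9.82 to 10.15. The dimmer set was knockout pool 3 and wildtype pools 1 and 2, with 9.53 to 9.66. The cut was placed by rank, and the controls do not show that the arrays form separate sets. Both genotypes occur in each set.

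The guidance genes were called about as seldom as genes in general. Of the 40 tested members, 1 passed the test, Robo1, which fell, and none rose (limma, adjusted p of 0.1 or less, the threshold named in the labels). That is 2.5% of the members, where 4.66% of all tested genes passed, 2.03% upward and 2.63% downward. The count of members called changed with the pools kept and with the fit. It was 7 without wildtype pool 3 (17.5%, where 17.6% of all genes passed) and 12 with array weights (30%, where 33% passed). It was 4 when the set of arrays was entered as a block (10%, where 9.44% passed). Dropping any single pool numbered 1 or 2, of either genotype, brought it to 0. Median centring and averaging of pools 1 and 2 did the same. An unadjusted p under 0.05 was reached by 5 members, against 13.5% of all genes. The 3 knockout pools lay wholly above the 3 wildtype pools in 4 members and wholly below them in 3, together 17.5% of the members, against 20% of all tested genes (10.5% above and 9.48% below). The median difference was 0.02 over the members and 0.02 over all genes tested. Differences were positive in 23 members and negative in 17, a split that became 30 and 10 in the values as deposited, where the median was 0.14 over the members and 0.13 over all genes.

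The data also set limits on how large a difference could have been missed. The 95% confidence interval of a member's difference had a median half-width of 0.36 on the log2 scale. The intervals take the pools of a genotype as independent, although pools 1 and 2 were the most alike. Folds here are of intensity plus 16, which understates changes of dim genes. For 37 of the 40 members the interval lay inside a 2-fold change in either direction on that scale. The 3 others were Robo1, Epha4 and Sema3c. For 16 members the interval lay inside a 1.41-fold change. Differences of more than 1.5-fold were measured in 3 members (Robo1, Dcc and Sema3c), and of more than 2-fold in Sema3c alone, which a single pool decides.

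**Figure D1:**
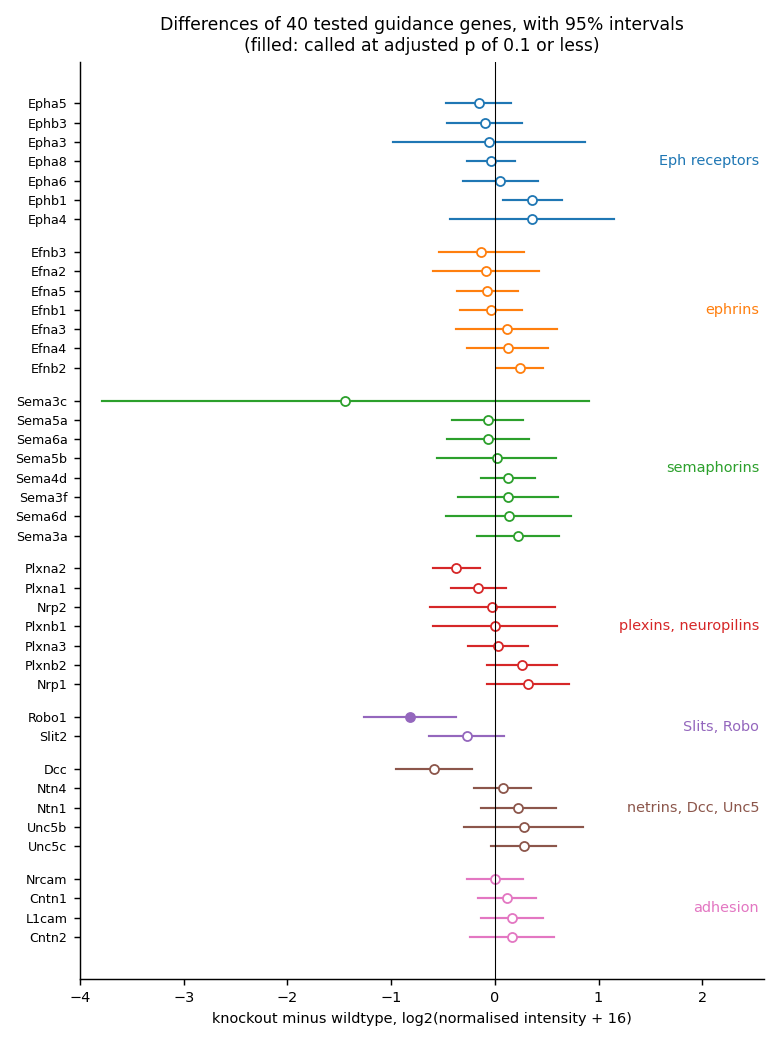
Each point is the difference between the knockout and wildtype means of 3 pools for 1 of the 40 tested genes, on the log2(normalised intensity + 16) scale, and each line is its 95% confidence interval from limma, with colours for the families. Robo1 is the filled point at -0.82, and 37 of the 40 intervals lie within 1 unit of zero.

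In the Slit system, Robo1, a receptor for the repellent Slit proteins, was lower in the knockout pools. Its level was 7.48, 7.63 and 7.23 in wildtype pools 1 to 3 and 6.42, 6.48 and 7.0 in knockout pools 1 to 3. The groups do not overlap, and knockout pool 3 and wildtype pool 3 lie closest to each other. Robo1 fell 1.76-fold, from 7.45 ± 0.20 to 6.63 ± 0.32 (SD, n = 3), a log2 difference of -0.82 (95% interval -1.26 to -0.37; limma adjusted p = 0.0759). Removal of any of 4 pools ended the call: wildtype pool 1 (adjusted p = 0.241), wildtype pool 2 (0.227), knockout pool 1 (0.309) or knockout pool 2 (0.329). It also ended at a threshold of 0.05, with arrays centred on their medians (0.128), without the brightness filter (0.126), with pool number as a replicate block (0.256) and with pools 1 and 2 merged within each genotype (0.755), so that 9 of 18 alternatives lost it and adjusted p ranged from 0.00103 to 0.755. Within the sets of arrays with brighter and dimmer controls the difference was -0.79 and -0.56. The other Robo1 probe sets, both below the brightness filter, differed by 0.08 and -0.05.

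Slit2, a Robo ligand, was the other tested member of this system. Its level was 7.54, 7.66 and 8.03 in the wildtype pools and 7.46, 7.59 and 7.36 in the knockout pools. The groups overlap, and the difference of -0.27 did not pass the test (limma adjusted p = 0.569, 95% interval -0.63 to 0.09). Slit1, Slit3, Robo2 and Robo3 were too dim to be tested. Slit1 stood at 5.56 and 5.52 in wildtype pools 1 and 2 and between 4.36 and 4.95 in the other 4 pools, wildtype pool 3 among them. Robo2, the Robo receptor best known in retinal ganglion cells, ranged from 5.80 to 6.70 in wildtype and from 5.92 to 5.95 in knockout pools.

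In the netrin system, the attractive receptor Dcc was lower in each knockout pool than in any wildtype pool, but its difference did not pass the test. Dcc lets ganglion cell axons respond to netrin at the optic nerve head. Its level was 7.23, 7.38 and 6.98 in the wildtype pools and 6.57, 6.47 and 6.79 in the knockout pools. As for Robo1, the pools numbered 3 lie nearest each other. The difference was -0.59 (95% interval -0.96 to -0.22; limma adjusted p = 0.118), a ratio of 1.5. Within the sets of arrays it was -0.46 and -0.51, and the dimmer Dcc probe sets, which were not tested, differed by -0.53 and -0.18.

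The repulsive netrin receptor Unc5c lay on the other side. It stood at 6.94, 6.77 and 6.89 in the wildtype pools and at 7.08, 7.06 and 7.31 in the knockout pools, so that every knockout pool was above every wildtype pool. The difference of 0.28 did not pass the test (limma adjusted p = 0.451). Unc5b, a netrin receptor also found on vessels, stood at 5.79, 6.12 and 6.57 in the wildtype pools and at 6.2, 6.83 and 6.28 in the knockout pools, a difference of 0.28 with overlapping groups (adjusted p = 0.789). Of the ligands, Ntn1, which marks the optic nerve head, stood at 6.29, 6.24 and 6.43 in the wildtype pools and at 6.76, 6.54 and 6.34 in the knockout pools, a difference of 0.23 (adjusted p = 0.674), with overlapping groups. Ntn4, a netrin of basement membranes, stood at 7.60, 7.57 and 7.73 in the wildtype pools and at 7.62, 7.82 and 7.69 in the knockout pools, a difference of 0.08 (adjusted p = 0.914), again with overlap. Unc5a was too dim to be tested, at 5.86 to 6.29 in wildtype and 5.85 to 5.98 in knockout pools.

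**Figure D2:**
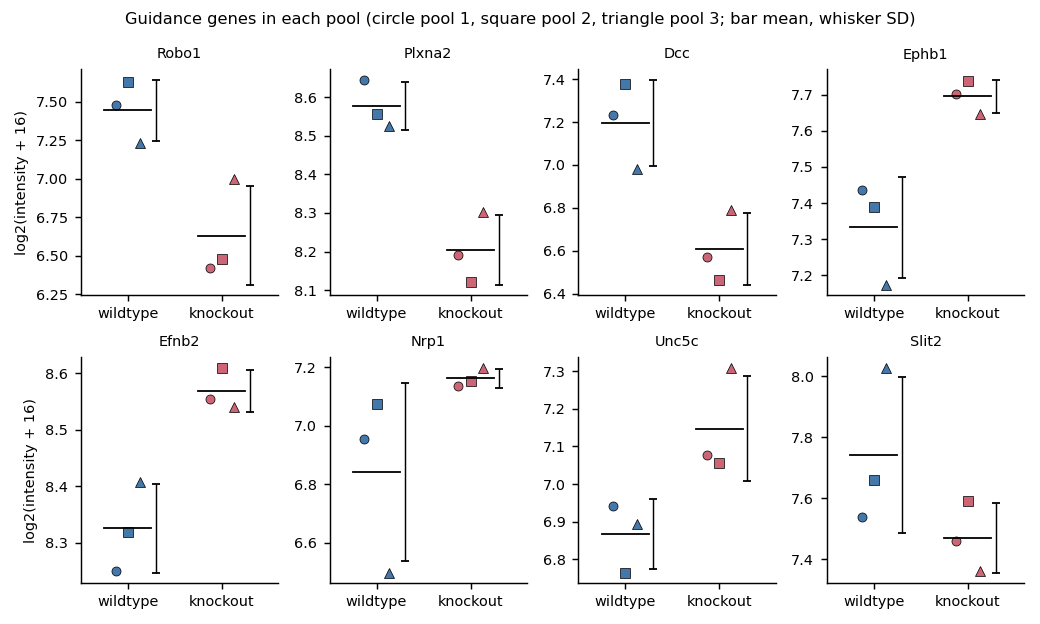
Each panel plots the level of 1 gene, log2(normalised intensity + 16), in the 3 wildtype and 3 knockout pools, with the marker shape for the pool number, a bar for the mean and a whisker for the SD (n = 3); the vertical axes differ between panels and do not start at 0. The groups do not overlap for Robo1, Plxna2, Dcc, Ephb1, Efnb2, Nrp1 and Unc5c and overlap for Slit2, and Robo1 alone passed the test.

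No Eph receptor or ephrin of 14 tested passed the test. The pair that came closest were Ephb1 and Efnb2, both higher in every knockout pool than in any wildtype pool. Ephb1 is the receptor with which ventrotemporal ganglion cell axons turn away from the midline of the optic chiasm, where ephrin-B2, the product of Efnb2, is displayed. The Ephb1 level was 7.44, 7.39 and 7.17 in the wildtype pools and 7.70, 7.74 and 7.65 in the knockout pools. Its difference was 0.36 (95% interval 0.08 to 0.65; limma adjusted p = 0.222), and it was 0.55 and 0.23 within the sets of arrays with brighter and dimmer controls. Efnb2 stood at 8.25, 8.32 and 8.41 in the wildtype pools and at 8.55, 8.61 and 8.54 in the knockout pools. Its difference was 0.24 (95% interval 0.02 to 0.46; adjusted p = 0.305), and 0.36 in its second bright probe set.

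In the A class, which carries the nasal to temporal map, none of the 9 tested genes passed the test. Epha5 stood at 7.59, 7.62 and 7.30 in the wildtype pools and at 7.45, 7.33 and 7.26 in the knockout pools, a difference of -0.16 (adjusted p = 0.786). Its ligand Efna5 differed by -0.07, Efna2 by -0.08, Efna3 by 0.11, Efna4 by 0.12, Epha6 by 0.05 and Epha8 by -0.04. Groups overlap for each of these 7 genes, and the wildtype pools of Efna2 spread from 6.64 to 7.52. Among the B class, Efnb1 differed by -0.04, Ephb3 by -0.10 and Efnb3 by -0.13, the last with 7.64, 7.79 and 8.29 in the wildtype pools and 7.75, 7.91 and 7.67 in the knockout pools.

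Epha3 and Epha4 were the Eph receptors with the widest spread between wildtype pools. The Epha3 level was 6.73 and 6.96 in wildtype pools 1 and 2 but 8.44 in wildtype pool 3, with 7.40, 7.45 and 7.11 in the knockout pools. Its difference was -0.06 over all pools. Without wildtype pool 3 it was 0.47, and Epha3 passed the test as higher (adjusted p = 0.0786). Its dimmer probe sets above the filter differed by -0.30 and -0.72. Epha4 stood at 6.78, 6.14 and 7.51 in the wildtype pools and at 7.55, 7.19 and 6.78 in the knockout pools, a difference of 0.36 (95% interval -0.43 to 1.15; adjusted p = 0.812). In its next 3 probe sets, all below the filter, the difference was -0.49, -0.32 and -0.69, opposite to that of the brightest. Every knockout pool was below every wildtype pool in the first of these 3, and the groups overlap in the others. No direction can be read for Epha3 or Epha4 from these arrays.

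None of the 15 tested semaphorins, plexins and neuropilins passed the test, and the smallest p belonged to Plxna2. Plexin A2 is a receptor of class 6 semaphorins, among them semaphorin 6A, and takes part in arranging amacrine cell processes. Its level was 8.65, 8.56 and 8.53 in the wildtype pools and 8.19, 8.12 and 8.30 in the knockout pools, so that the groups do not overlap. The difference was -0.37 (95% interval -0.60 to -0.14; limma adjusted p = 0.115), a ratio of 1.29. Its 2 other bright probe sets differed by -0.30 and -0.36, with overlapping groups in the second of them. Within the sets of arrays the difference was -0.37 and -0.30, and in the values as deposited it was -0.22 (adjusted p = 0.426).

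Nrp1, the neuropilin that binds semaphorin 3A and the vascular growth factor VEGF-A, was higher in each knockout pool than in any wildtype pool, by a narrow margin. It stood at 6.96, 7.07 and 6.50 in the wildtype pools and at 7.14, 7.15 and 7.20 in the knockout pools. The difference of 0.32 did not pass the test (adjusted p = 0.525), and it was 0.16 and 0.23 in the other bright probe sets. The groups overlap in the first of these probe sets but not in the second. Wildtype pool 3 was the low one here. The receptor Plxnb2 stood at 8.35, 8.21 and 7.86 in the wildtype pools and at 8.52, 8.39 and 8.30 in the knockout pools, a difference of 0.26 with overlapping groups (adjusted p = 0.543). Plxna1 had 7.74, 7.73 and 7.63 in the wildtype and 7.48, 7.49 and 7.65 in the knockout pools, a difference of -0.16 (adjusted p = 0.692). Plxna3, Plxnb1 and Nrp2 differed by 0.03, 0.00 and -0.02.

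Of the semaphorin ligands, the secreted Sema3a differed by 0.22 and Sema3f by 0.13. The membrane-bound Sema4d, Sema6d, Sema5b, Sema6a and Sema5a differed by 0.13, 0.14, 0.02, -0.06 and -0.07. Wildtype and knockout pools overlap in the brightest probe set of each of these 7 genes. In the second bright probe set of Sema4d every knockout pool was above every wildtype pool, by 0.29 on average. Groups overlap in the other bright probe sets of these genes. Semaphorin 6A, the ligand of plexin A2 and plexin A4, stood at 7.04, 7.30 and 6.84 in the wildtype pools and at 6.86, 6.91 and 7.22 in the knockout pools.

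Sema3c, which encodes a secreted semaphorin, had its widest contrast between pools, not between genotypes. Its brightest probe set stood at 6.16, 6.27 and 10.47 in wildtype pools 1 to 3 and at 6.33, 6.09 and 6.15 in the knockout pools. In deposited units this is 1334 in wildtype pool 3 against 52.0 to 66.7 in the other 5 pools. The difference of -1.44 between genotypes (limma adjusted p = 0.685) comes from that pool, since within the set of arrays without it the difference was -0.07. The second Sema3c probe set showed no such excess. It stood at 5.82, 5.49 and 5.14 in the wildtype pools and at 6.49, 6.33 and 5.84 in the knockout pools, where every knockout pool was higher, by 0.73 on average, and it was too dim to be tested. The 2 probe sets therefore disagree, both in wildtype pool 3 and in the sign of the difference.

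**Figure D3:**
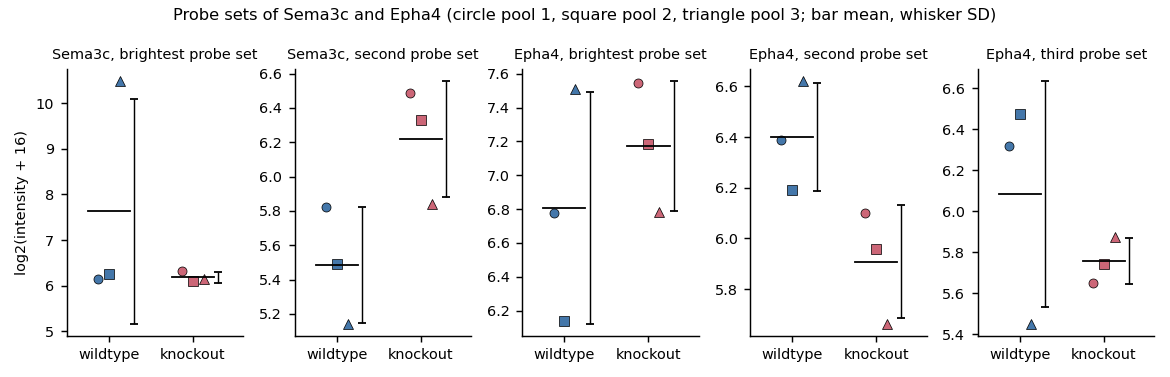
Levels, log2(normalised intensity + 16), in the 3 wildtype and 3 knockout pools are plotted for the 2 probe sets of Sema3c and the 3 brightest of Epha4, with the marker shape for the pool number, a bar for the mean and a whisker for the SD (n = 3); the vertical axes differ between panels and do not start at 0. Wildtype pool 3 stands at 10.47 in the brightest Sema3c probe set and at 5.14, the lowest of all pools, in the second, and the knockout mean is above the wildtype mean in the brightest Epha4 probe set and below it in the next.

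The 4 adhesion molecules that axons use to bundle and extend gave small positive differences, none past the test. L1cam, found along ganglion cell axons, stood at 8.45, 8.49 and 8.74 in the wildtype pools and at 8.56, 8.70 and 8.91 in the knockout pools, a difference of 0.16 (limma adjusted p = 0.736). Its relative Nrcam was at 8.23, 8.21 and 8.2 in the wildtype pools and at 8.12, 8.12 and 8.42 in the knockout pools, a difference of 0.01. The contactins, which are anchored to the membrane by a lipid, were much alike. Cntn1 stood at 8.55, 8.56 and 8.83 in wildtype and 8.93, 8.65 and 8.71 in knockout pools, and Cntn2 at 7.12, 6.66 and 6.75 against 7.21, 7.01 and 6.80. Their differences were 0.12 and 0.16. The groups overlap in the brightest probe set of all 4 genes. In a second L1cam probe set, below the filter, every knockout pool was above every wildtype pool, by 0.60 on average. Probe sets below the filter differed by -0.20 to 0.02 in the other genes.

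Of the 11 members that were too dim to be tested (mean levels from 4.86 up to the filter at 6.21), none had groups that lie apart in the brightest probe set. They are Epha7, Ephb4, Ephb6, Efna1, Sema3e, Plxna4, Slit1, Slit3, Robo2, Robo3 and Unc5a. Sema3e, just under the filter, had the largest difference among them, 0.67, with 5.62, 5.16 and 6.84 in the wildtype pools and 6.54, 6.91 and 6.17 in the knockout pools. Slit1 had the lowest, -0.57. The groups lie apart in a dimmer probe set of Robo3, with a difference of -0.51 where the brightest had 0.35. They also lie apart, by a narrow margin, in a dimmer probe set of Sema3e, with a difference of 0.29. The receptors Ephb6, Ephb4 and Epha7 differed by -0.38, -0.18 and -0.01. No detection calls were used, so whether these genes were above background is not known. Several bright probe sets were on the array for 16 of the tested members, and their differences had one sign in 11 and mixed signs in 5 (Epha5, Nrcam, Plxnb1, Sema5a and Sema5b), with at most 0.37 between them.

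As among all tested genes, the sets of arrays separated more of the guidance genes than the genotypes did. In 12 of the 40 tested members (30%) the 3 arrays with brighter hybridisation controls did not overlap the 3 with dimmer controls. That was the case in 32.5% of all tested genes. The genotypes lay apart in 7 members (17.5%), against 20% of all tested genes. The brighter set was higher for Epha3, Epha4, Efna3, Efna5, Sema6d, Plxnb1, Nrp2 and Ntn1 and lower for Sema5a, Sema6a, Plxna1 and Nrcam. Nrp2, for example, was 6.85 to 7.41 in the brighter set and 6.53 to 6.54 in the dimmer, and Plxnb1 was 8.27 to 8.76 against 7.85 to 7.92. The genotype difference had the same sign within both sets in 20 members and opposite signs in 20. Every within-set difference rests on a lone array for one of the genotypes.

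Wildtype pool 3 often lay at an extreme of the wildtype pools. It was the highest or lowest of them in 36 of the 40 members, the highest of all 6 pools in 12 and the lowest of all 6 in 7. These counts were made for wildtype pool 3 alone and were not compared with those of other pools. The SD was larger between wildtype than between knockout pools in 28 members (medians 0.22 and 0.14), as in 72.8% of all tested genes. Without wildtype pool 3, 7 members passed the test: Efnb2, Epha3, Ephb1 and Sema3f as higher and Dcc, Plxna2 and Robo1 as lower. That is 17.5% of the members, where 17.6% of all genes passed. When the array set was entered as a block, Ephb1 was higher and Dcc, Plxna2 and Robo1 were lower, 10% of the members, where 9.44% of all genes passed. In both fits the members' share was close to that of all genes, although more members were called. Array weights, which count variable arrays less, called 12 members (30%, where 33% of all genes passed).

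Under the other alternatives at most 1 member was called. Robo1 was the one in values as deposited (5.42% of all genes called), with a pseudocount of 1 (4.63%) or 64 (4.76%), with the probe set of largest difference (5.4%), without an intensity trend (3.48%) and without knockout pool 3 (3.05%). Plxna2 was the one, of 23 members, when the dimmest 60% of genes were left out (7.46%). No member was called with median centring (2.67%), without a brightness filter (2.16%), with the mean of a gene's probe sets (3.79%), at a threshold of 0.05 (2.95%), with the replicate block (2.46%), with pools 1 and 2 averaged (0.394%), or without wildtype pool 1 (2.23%), wildtype pool 2 (2.48%), knockout pool 1 (1.53%) or knockout pool 2 (1.65%).

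Other genes of the guidance pathways gave few differences as well. Of 28 tested ligands, receptors and adhesion molecules outside the member list, such as Plxnd1, Neo1 and Ncam1, none passed the test, although 3 had an unadjusted p under 0.05, and their differences ran from -0.42 to 0.50. Of 45 tested genes that carry guidance signals inside the cell, 3 rose and none fell, 6.67% where 4.66% of all genes passed. Dpysl3, a collapsin response mediator protein that links semaphorin signals to microtubules, stood at 10.40, 10.34 and 10.39 in the wildtype pools and at 10.82, 10.78 and 10.74 in the knockout pools. It rose by 0.40 (limma adjusted p = 0.0165). Ablim1, an actin-binding protein of axons, rose by 0.69, from 7.22, 7.24 and 6.96 to 7.96, 7.94 and 7.60 (adjusted p = 0.0551). The kinase gene Pak3, an effector of Rac1 and Cdc42, rose by 0.38, from 8.77, 8.72 and 8.60 to 9.10, 9.0 and 9.15 (adjusted p = 0.0814).

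Transcription factors and retinoic acid enzymes that pattern the axes of the retina made up the third list. Of 14 tested, 5 rose and 1 fell, 42.9% where 4.66% of all genes passed, but the list was chosen with earlier results of these data known. Foxd1, a transcription factor of the temporal retina, rose by 0.61, from 7.47, 7.35 and 7.48 to 7.99, 8.08 and 8.06 (limma adjusted p = 0.0251). Hmx1, a factor of the nasal retina, fell by 0.58, from 9.43, 9.83 and 9.52 to 9.08, 9.13 and 8.85 (adjusted p = 0.0595). The Hmx1 call was the only downward one among the 3 companion lists, and no gene of them was called lower in values as deposited or without wildtype pool 2 or any 1 knockout pool. The number of upward calls in those lists, 8 with all pools, was 5 without wildtype pool 1 or 2, 4 without knockout pool 1 or 2, and 13 without wildtype pool 3. The retinoic acid enzymes of the dorsal and ventral retina rose. Aldh1a1 rose by 2.78, from 8.77, 8.82 and 8.16 to 11.26, 11.31 and 11.51 (adjusted p = 0.000837), and Aldh1a3 by 1.82, from 6.73, 6.80 and 6.90 to 8.70, 8.78 and 8.39 (adjusted p = 0.00108). Cyp26a1, which breaks retinoic acid down, rose by 0.95, from 8.16, 8.08 and 7.91 to 8.86, 8.91 and 9.24 (adjusted p = 0.00931). Cyp1b1, a further enzyme of this list, rose by 0.86, from 7.68, 7.73 and 7.62 to 8.54, 8.48 and 8.58 (adjusted p = 0.00484). In each of these 4 genes all knockout pools were above all wildtype pools. The dorsal and ventral factors Tbx2, Tbx3, Tbx5, Vax1 and Vax2 did not pass the test, with differences of -0.12 to 0.03. Whether the guidance and patterning genes differ from each other in response was not tested.

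**Figure D4:**
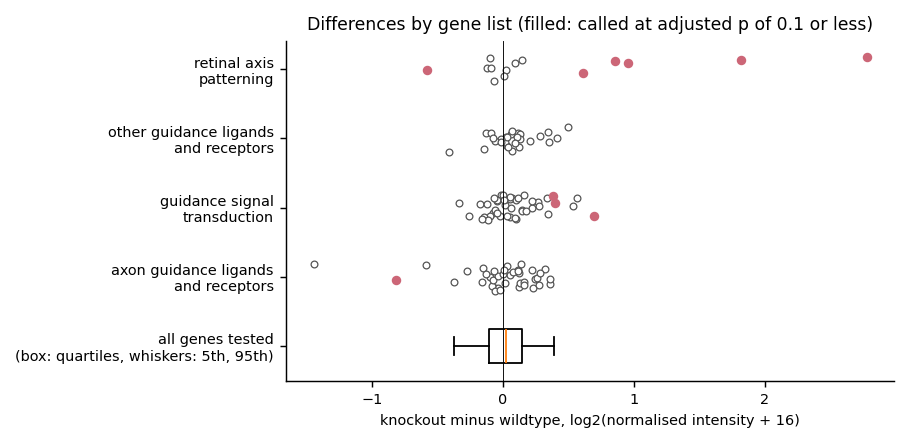
Each point is the difference between knockout and wildtype means, on the log2(normalised intensity + 16) scale, of 1 tested gene of the 40 guidance members or of the 3 other lists (28, 45 and 14 genes), filled where the gene passed the test; points are spread vertically only for legibility. The box shows the quartiles of all 10916 tested genes with whiskers at the 5th and 95th percentiles, and of the members Robo1 alone is filled, against 6 of 14 axis patterning genes.

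Markers of several cell types that use these molecules moved with the genotype. Of all tested genes, 2.03% were called higher and 2.63% lower. The marker lists were chosen with earlier results of these data known. Counts of markers are of tested genes, but sums include the named genes too dim to be tested. The sums cover 22 ganglion cell, 20 amacrine and horizontal cell, 23 proliferating cell, 12 photoreceptor and 20 lens genes. The others cover 16 blood vessel, 13 mesenchyme, 6 astrocyte, 16 pigment epithelium and ciliary margin, and 11 macrophage genes. Of 18 tested ganglion cell markers, 5 rose and none fell. The summed normalised intensity of the list was 6105 to 6631 in the wildtype pools and 8940 to 9303 in the knockout pools. Sncg, a synuclein, rose by 0.86, Gap43, a protein of growing axons, by 0.70, and Nefl, a neurofilament subunit, by 0.61. Of 14 amacrine and horizontal cell markers, 1 rose and 5 fell (sums of 4949 to 6411 and of 4052 to 4462), among them Meis2, Ptf1a, Tfap2b and Gad1. Of 23 markers of proliferating cells, 22 fell (14032 to 14808 and 7030 to 7852). Sums of the lens list were 3848 to 10323 in wildtype and 28545 to 73300 in knockout pools, with 13 of 18 genes higher, and those of the mesenchyme list were 622 to 753 and 855 to 2634, with Col1a1 alone of 6 passing the test. Blood vessel markers had sums of 2025 to 2131 and 2003 to 2037, with none of 6 called. Photoreceptor markers had 3 of 12 higher (6673 to 8473 and 9675 to 10782), and pigment epithelium and ciliary margin markers 1 higher and 1 lower of 12 (1793 to 2567 and 2180 to 2470). No astrocyte marker of 5 was called, but all 5 differences were positive, from 0.20 to 0.39, and the summed intensity was 440 to 490 in wildtype and 542 to 603 in knockout pools, without overlap. No macrophage marker of 4 was called (703 to 802 and 709 to 750). The part of these cell types in the values of Robo1, Dcc, Plxna2 and the other members was not tested.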

How the data were processed

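The deposited values are linear intensities, 1 for each probe set in each of 6 pools. The summarising program is not given in the sources used here, nor is its scaling. Per the labels, the submitters tested with the NIA Array Analysis tool at a false discovery rate of 0.1. Of 45101 probe sets, 64 controls were left out; 34945 had 1 gene symbol in the platform annotation, 932 several and 9160 none, and probe sets with 1 symbol alone were kept. Of these, 34741 had their symbols updated through Entrez identifiers with RefSeq names of GRCm38.p6. That table served for names only.

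Array medians differed, so linear values were quantile normalised, floored at 1 and taken to log2(value + 16). The dimmest 40% of 18193 genes (7277) were not tested. limma 3.58.1, run in R 4.3.3, was applied to the other 10916 (lmFit, eBayes with an intensity trend, no covariate, two-sided, Benjamini-Hochberg over all genes). The fit was tested on simulated data. Intervals are 95% limits from the same fit. No column was left unused. Array sets were defined by rank on the mean of 5 BioB and BioC control probe sets. Members, lists and alternatives were chosen with earlier results of these data known. Values in every pool are given for called members, for up to 5 tested members per system with the smallest p, and for members with bright probe sets of opposite sign over 0.5 apart (none); of pathway lists, for up to 4 called genes with the smallest p. Marker genes are named without pool values. Foxd1, Hmx1, Epha3, Slit1, Sema3e, Sema6a and the unlisted probe sets were described beyond this rule, after their values were seen. Alternatives covered scaling, pseudocount, filter, probe set, variance model, threshold, blocks, averaged pools and each array left out. Figures were drawn with matplotlib 3.10.9.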

Additional observations from a re-analysis of the deposited data

How the results depend on the processing

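Results were recomputed under 20 alternatives, 6 of which leave out 1 array. No member was higher and 1 was lower; the counts of members higher became 8 with array weights and 1 when the array set was a block, and ranged from 0 to 4 over the fits that leave out 1 array. Members lower became 4 with array weights and 3 with that block, and 0 with arrays centred on their medians, without a filter on dim genes, with the mean of a gene's probe sets, at a threshold of 0.05, with the replicate block and with pools 1 and 2 averaged; leaving out 1 array gave 0 to 3. Of all genes, 1857 were higher and 1747 lower with array weights. The members' median of 0.02 was 0.14 in values as deposited and 0.12 with array weights, and -0.0049 to 0.12 with 1 array left out. The median over all tested genes was 0.13 in values as deposited, 0.015 with array weights and 0.0081 to 0.030 with 1 array left out. Epha3, at -0.06, was called higher with array weights (0.51) and without wildtype pool 3 (0.47); with 1 array left out it ranged from -0.38 to 0.47. The cause of these changes was not tested.

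For the 3 pathway lists together, 8 genes were higher and 1 lower. The 8 became 26 with array weights, 5 with the mean of a gene's probe sets, 5 with the replicate block and 2 with averaged pools, and 4 to 13 with 1 array left out. The 1 became 7 with array weights, 2 with the probe set of largest difference, and 0 in values as deposited, with median centring, without a filter, without an intensity trend, at a threshold of 0.05 and with averaged pools, and 0 to 4 with 1 array left out.

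Of all genes, 222 were higher and 287 lower. These became 416 and 176 in values as deposited, 597 and 433 with the array set blocked and 17 and 26 with averaged pools. There were 127 higher at a threshold of 0.05 and 135 lower with median centring. With 1 array left out, 68 to 862 were higher and 99 to 1055 lower. With the replicate block 126 were higher and 143 lower. Deviations of same-numbered pools correlated at 0.17, -0.35 and -0.48, and those of unlike-numbered pools at -0.48 to 0.55. With 3 pools a genotype these values cannot decide whether the numbers pair the pools. The Ccnd1 difference of -3.59 kept its call in all 20. With 3 pools a genotype, the 95% interval of a typical member reached 0.36 on the log2 scale to either side, which limits what could be detected.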

Other observations

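Sema3c was the gene with the largest excess of wildtype pool 3 over every other pool, 17.7-fold above the next pool. Hrh1, a histamine receptor gene that is no guidance molecule, was the next, at 9.18 in wildtype pool 3 and 4.79 to 5.64 in the other 5 pools. These were the only 2 of 18193 genes over 4-fold above all other pools there. By the same measure there were 2 such genes in wildtype pool 2, 1 in knockout pool 3 and none in wildtype pool 1 or knockout pools 1 and 2. Epha3 was seventh in that order, at 1.98-fold above the next pool. These genes were picked for their values, and no test was made.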
